A study of Mus musculus with 7 samples.

Results

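The genes described here were 10 genes of platelets and their parent cells, the megakaryocytes: Itga2b, Itgb3, Vwf, Pf4, Plek, Cd9, Cd63, Selp, Gp9 and Gp1bb. They were chosen by symbol from the 19649 genes of the deposited gene table. All 10 were in it, and all 10 were among the 16047 genes that passed the filter on low values (at least 10 normalized counts in at least 3 libraries) and were tested. A normalized count is the number of reads of a gene divided by a size factor of its library.

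Platelets are cell fragments that megakaryocytes shed into the blood, and they stop bleeding. Megakaryocytes descend from haematopoietic stem cells, and part of the stem cells carry surface proteins and messages of the megakaryocyte line before they divide toward it, a state known as platelet bias or megakaryocyte priming. The integrin subunit CD41, made from Itga2b, and von Willebrand factor, made from Vwf, are the best known marks of that state. Mutations of CALR, which encodes the chaperone calreticulin, occur in myeloproliferative neoplasms with raised platelet numbers.

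RNA was sequenced from sorted mouse long-term haematopoietic stem cells in 7 libraries. The wild-type group had 4 libraries of genotype Calr +/+ MxCre. The mutant group had 3 libraries whose genotype label reads Calr fl/fl (Calr del52/del52) MxCre. All 7 carried the strain label of a CALR knockin crossed with mice expressing MxCre. MxCre is a Cre recombinase driven by an interferon-responsive promoter, which acts in many cell types and not in blood cells alone. All mice received pI:pC, a double-stranded RNA mimic that raises interferon and so induces the Cre. Cells negative for lineage markers and CD48 and positive for Kit, Sca-1 and CD150 were sorted 14 days after the start of induction, and no further treatment was given. The controls thus shared the Cre, the pI:pC and the sort with the mutant. The labels give no ages, do not say whether animals were pooled, and leave unsaid whether every library is its own animal; p-values therefore reflect spread among these libraries alone, which may be technical.

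Between 21325340 and 28710304 reads were counted per library, and 19189 to 19347 genes had reads. The wild-type libraries fell into pairs: with limma, a linear model fitted across all genes, 7215 of 16047 genes (45.0%) differed between wild-type 3 and 4 and wild-type 1 and 2. Values were higher for longer transcripts in wild-type 3 and 4 (0.24 log2 units for each doubling of exonic length) and not in the other libraries (-0.18 to 0.01). Wild-type 3 and 4 and mutant 1 and 2 carry sample-title numbers of a single series, and the other 3 titles do not. What the series stands for (a batch, a litter or neither) the labels do not say. Calr itself averaged 16783 ± 1259 normalized counts (SD, n = 4) in the wild-type group, against 15093 ± 767 (SD, n = 3) in the mutant group. A sum over the gene checks the labels only weakly, since the allele changes its coding end. Of the sorting markers, Slamf1, the gene of CD150, had 1416 to 1931 normalized counts in wild-type and 1915 to 2407 in mutant libraries, and all 16 genes of a long-term stem cell list were in the table. That list summed to 42191 and 44554 normalized counts for wild-type 1 and 2, to 82515 and 80383 for wild-type 3 and 4 and to 45935 to 49650 for the mutant.

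The promoters of 4 of the genes are shown because Itga2b and Plek were low together in the mutant libraries, while Pf4 and Gp9 were low together in the libraries of the shared title series. Each is the 250 bases before the gene's start in RefSeq, build GRCm38.p6, written 5′ to 3′ on the gene's strand. The Plek window lies before the first exon of the transcript model Plek-202, whose groups overlapped. It is not the start of Plek-201, the model with separate groups (both are described below). Both strands were searched, and capitals mark the letters GATAA, to which GATA factors bind, and AGGAAG, to which ETS factors bind, or their reverse complements TTATC and CTTCCT.
Itga2b, chr11:102469884-102470133, minus strand: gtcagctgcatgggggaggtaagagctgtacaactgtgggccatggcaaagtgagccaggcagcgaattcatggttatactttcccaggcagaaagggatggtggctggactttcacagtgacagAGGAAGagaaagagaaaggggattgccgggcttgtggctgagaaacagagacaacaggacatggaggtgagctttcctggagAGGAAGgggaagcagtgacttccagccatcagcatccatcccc
Plek, chr11:17008719-17008968, minus strand: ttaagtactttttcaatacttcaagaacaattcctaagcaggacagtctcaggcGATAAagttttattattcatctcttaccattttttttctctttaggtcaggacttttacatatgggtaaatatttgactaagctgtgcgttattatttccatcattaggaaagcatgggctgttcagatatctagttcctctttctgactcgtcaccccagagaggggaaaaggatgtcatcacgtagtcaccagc
Pf4, chr5:90772185-90772434, plus strand: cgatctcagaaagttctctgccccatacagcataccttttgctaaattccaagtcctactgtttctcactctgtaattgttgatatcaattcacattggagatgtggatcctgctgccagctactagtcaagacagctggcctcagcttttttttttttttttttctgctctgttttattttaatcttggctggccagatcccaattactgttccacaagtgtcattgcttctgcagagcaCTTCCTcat
Gp9, chr6:87777820-87778069, plus strand: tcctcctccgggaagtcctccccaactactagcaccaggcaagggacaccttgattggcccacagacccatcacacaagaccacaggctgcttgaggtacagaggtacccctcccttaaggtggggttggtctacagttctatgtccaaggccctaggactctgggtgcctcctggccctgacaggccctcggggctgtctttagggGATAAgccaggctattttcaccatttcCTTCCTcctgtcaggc
The table of promoters held 8 of the 10 genes, without Itgb3 and Vwf. The GATAA letters were in 2 of those 8 windows, Plek and Gp9, and in 22.6% of 32851 promoter windows of the same length. The AGGAAG letters were in 6 of 8, the exceptions being Plek and Gp1bb, against 29.5% of all windows. Itga2b had them 2 times on its own strand. GATAA and AGGAAG can share 1 base. A match is a description of the letters and not a measured binding site.

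Among the 10 genes, the integrin subunit Itga2b and the signalling protein Plek were lower in every mutant library than in every wild-type library, at 42.8% and 46.1% of the wild-type mean. Of the other 8 genes none had separate groups. Cd63 averaged 150.5% of wild-type and Cd9 120.5%, and the adhesive protein Vwf and the integrin subunit Itgb3 averaged 73.7% and 77.0%, all with overlapping libraries. Over all 16047 tested genes, 4.34% had all mutant libraries below all wild-type libraries and 5.23% all above, so 2 of 10 below and 0 of 10 above stand beside those shares. With all 7 libraries, limma called 0 of the 10 genes and 0 of 16047 in all (0.0%) at an adjusted p of 0.05, although 1365 genes had an unadjusted p under 0.05. In bulk samples, fewer cells of a type and less RNA per cell cannot be told apart.

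Itga2b (ENSMUSG00000034664.13, chromosome 11, 102453297 to 102470122, minus strand, GRCm38) encodes integrin αIIb, the subunit that pairs with integrin β3 to form the fibrinogen receptor of platelets. It measured 4885, 5459, 7309 and 4337 normalized counts across wild-type 1 to 4, against 1958, 2804 and 2292 across mutant 1 to 3. Wild-type 3 was the highest library, and the lowest wild-type library was well above the highest mutant library. The wild-type mean was 5497 ± 1292 (SD, n = 4) against 2351 ± 426 (SD, n = 3) for the mutant, a log2 difference of -1.21 (SE 0.22). By unadjusted p (0.000541) Itga2b ranked 4 of 16047 genes in limma, and its adjusted p was 0.538. DESeq2 on the recovered reads called it (adjusted p = 0.0073) among 84 of 15455 genes (0.544%), and it was the only 1 of the 10 genes that DESeq2 called. It lay between 1745 and 8762 counted reads per library, so counting error is small beside the spread between libraries.

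Set against each wild-type pair in a fit with the pairs as separate sets, Itga2b differed by -1.15 (SE 0.22, limma adjusted p = 0.0665) from wild-type 1 and 2 and by -1.27 (SE 0.22, adjusted p = 0.0017) from wild-type 3 and 4. The first of these passed on leaving out wild-type 3, wild-type 4, mutant 2 or mutant 3 (limma adjusted p = 0.0058 to 0.0479). Those fits called 10 to 238 of 16047 genes lower. Itga2b did not pass in that contrast without wild-type 1, where 0 genes were called, or without wild-type 2, where 0 were called lower. With the length slope of the libraries as a covariate Itga2b passed (-1.12, limma adjusted p = 0.0368; 0.174% of all genes were called lower), and it passed in a fit without wild-type 3 and 4 (-1.15, adjusted p = 0.0411; 0.081% called lower). The call against wild-type 3 and 4 came with 46.8% of all genes, while against wild-type 1 and 2 only 50 genes (0.312%) passed. Both contrasts use the same mutant libraries. The wild-type pairs themselves differed by 0.12 (SE 0.24, adjusted p = 0.705), less than the standard error. Within the 4 libraries of the shared title series its log2 difference was -1.26 (adjusted p = 0.0062), in a fit that called 37.5% of all genes.

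Plek (chromosome 11, 16971206 to 17052381, minus strand) encodes pleckstrin, the main substrate of protein kinase C in platelets. It measured 1050, 1645, 2205 and 1000 normalized counts across wild-type 1 to 4, against 550, 780 and 709 across mutant 1 to 3. The groups did not overlap, and wild-type 1 and 4 were the nearest to the mutant libraries. The difference of the mean log2 values was -1.05 (SE 0.31, limma adjusted p = 0.538), and the gene ranked 212 by unadjusted p. It was -0.97 against wild-type 1 and 2 (adjusted p = 0.261) and -1.14 against wild-type 3 and 4 (adjusted p = 0.0134), again without a difference between the pairs that passed (0.18, adjusted p = 0.704).

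**Figure D1:**
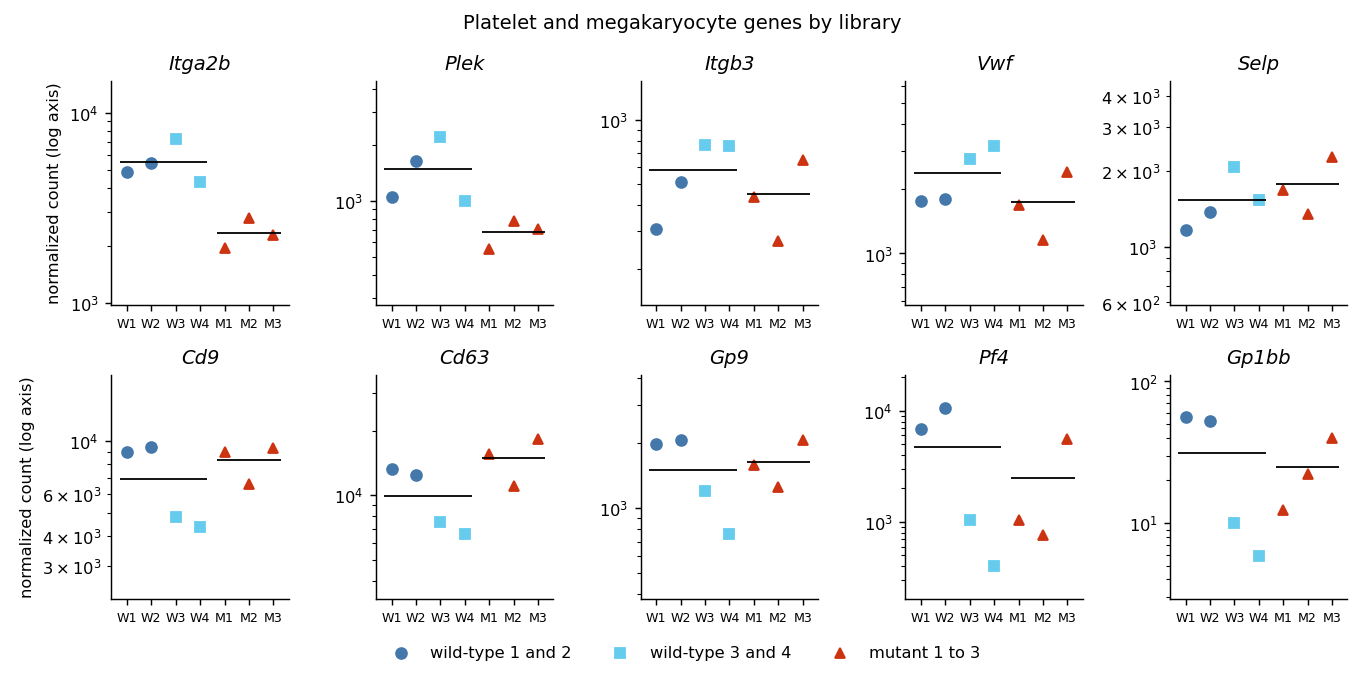
Normalized counts (log axis) of the 10 genes in each library: wild-type 1 and 2 (W1 and W2, circles), wild-type 3 and 4 (W3 and W4, squares) and mutant 1 to 3 (M1 to M3, triangles), with a line at each group's mean. Itga2b and Plek are lower in all 3 mutant libraries than in all 4 wild-type libraries, and in Cd9, Cd63, Gp9, Pf4 and Gp1bb the wild-type libraries split by pair.

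In the partner of Itga2b the groups overlapped. Itgb3 (chromosome 11, 104608000 to 104670476, plus strand), which encodes integrin β3, measured 306, 513, 766 and 759 normalized counts across wild-type 1 to 4, against 436, 269 and 649 across mutant 1 to 3. The mutant libraries lay within and just below the wild-type range, with mutant 2 the lowest. The log2 difference was -0.37 (SE 0.40, limma adjusted p = 0.646) over all libraries, 0.10 against wild-type 1 and 2 and -0.85 against wild-type 3 and 4 (adjusted p = 0.0603). Within the 4 libraries of the shared title series, which leaves out mutant 3, it was -1.15 (adjusted p = 0.0073) and passed. On a scale per transcript length (FPKM, which allows for each model's length and each library's depth), Itga2b exceeded Itgb3 by a ratio of 28.3, 20.2, 16.8 and 9.87 across wild-type 1 to 4, against 8.53, 19.5 and 7.09 across mutant 1 to 3. Those ratios overlapped between the groups (18.8 ± 7.64 and 11.7 ± 6.79), so the difference between the subunits' changes was not larger than the spread between libraries.

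Vwf, Gp9 and Gp1bb belong to the adhesion step in which platelets catch on injured vessels. Vwf (chromosome 6, 125546774 to 125686679, plus strand), the ligand, measured 1748, 1793, 2732 and 3161 normalized counts across wild-type 1 to 4, against 1684, 1150 and 2378 across mutant 1 to 3. The groups overlapped, and wild-type 3 and 4 were the highest libraries. Its log2 difference was -0.09 against wild-type 1 and 2 (limma adjusted p = 0.923) and -0.82 against wild-type 3 and 4 (adjusted p = 0.0208). The call against wild-type 3 and 4 was lost without wild-type 3 (limma adjusted p = 0.0658) or without wild-type 4 (adjusted p = 0.134). Within the shared title series the difference was -1.08 (adjusted p = 0.0043).

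Gp9 (chromosome 6, 87778072 to 87779768, plus strand) encodes glycoprotein IX, a small subunit of the platelet receptor for von Willebrand factor. It measured 1983, 2078, 1200 and 760 normalized counts across wild-type 1 to 4, against 1582, 1255 and 2064 across mutant 1 to 3. Mutant 1 and 2 lay between the wild-type pairs and mutant 3 lay among wild-type 1 and 2. The difference was 0.20 (SE 0.37) on the log2 scale over all libraries, -0.34 against wild-type 1 and 2 and 0.74 against wild-type 3 and 4 (limma adjusted p = 0.0246).

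Gp1bb (chromosome 16, 18620317 to 18622403, minus strand) encodes glycoprotein Ib beta, which joins glycoprotein IX in the same receptor. It reached only 55.7, 53.0, 10.01 and 5.82 normalized counts across wild-type 1 to 4, against 12.3, 22.3 and 39.9 across mutant 1 to 3, from 7 to 51 counted reads. Its log2 difference was 0.09 (SE 0.84) and turned sign with library weights, a larger pseudocount or a count test, so no direction is given. The gene overlaps exons of Sept5 and Gm49601 on the same strand, and its FPKM was 12.7 to 29.8 times the counted reads scaled in the same way by length and depth (median 25.5), against 0.84 to 0.98 for Gp9. Its levels are therefore uncertain on both scales.

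Selp (chromosome 1, 164115264 to 164150026, plus strand), the granule-membrane receptor that platelets expose when activated, measured 1170, 1375, 2076 and 1543 normalized counts across wild-type 1 to 4, against 1681, 1357 and 2290 across mutant 1 to 3. The ranges nearly coincided. The log2 difference was 0.20 (SE 0.26, limma adjusted p = 0.687), with 0.45 against wild-type 1 and 2 and -0.04 against wild-type 3 and 4, and neither passed.

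The tetraspanins Cd9 and Cd63, membrane proteins of platelets and of their granules that other blood cells also carry, shared a layout across libraries. Cd63 (chromosome 10, 128900989 to 128912822, plus strand) measured 13253, 12410, 7521 and 6572 normalized counts across wild-type 1 to 4, against 15584, 11082 and 18210 across mutant 1 to 3. Mutant 2 was below wild-type 1 and 2, and wild-type 3 and 4 were the lowest libraries. The log2 difference was 0.63 (SE 0.30, limma adjusted p = 0.538), with 0.19 (adjusted p = 0.766) against wild-type 1 and 2 and 1.06 (adjusted p = 0.0022) against wild-type 3 and 4.

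Cd9 (chromosome 6, 125460266 to 125494791, minus strand) measured 8998, 9452, 4819 and 4360 normalized counts across wild-type 1 to 4, against 9023, 6578 and 9362 across mutant 1 to 3. Mutant 1 and 3 lay with wild-type 1 and 2, mutant 2 lay lower, and wild-type 3 and 4 were the lowest libraries, as for Cd63. Its log2 differences were -0.17 (limma adjusted p = 0.762) against wild-type 1 and 2 and 0.84 (adjusted p = 0.0029) against wild-type 3 and 4. With the length slope of the libraries as a covariate, the difference over all libraries went from 0.34 to -0.14 for Cd9 and from 0.63 to 0.19 for Cd63. A pseudogene, Cd63-ps, may share reads with Cd63.

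Pf4 (chromosome 5, 90772435 to 90773383, plus strand), platelet factor 4, a chemokine stored in alpha granules, had the widest range of the 10. It measured 6804, 10550, 1047 and 404 normalized counts across wild-type 1 to 4, against 1039, 770 and 5602 across mutant 1 to 3. Each genotype held both low and high libraries, and the wild-type libraries alone spanned a ratio of 26.1. The log2 difference was -0.51 (SE 1.18, limma adjusted p = 0.826), with -2.36 against wild-type 1 and 2 (adjusted p = 0.216) and 1.34 against wild-type 3 and 4 (adjusted p = 0.143). The former passed without mutant 3 (-3.24, limma adjusted p = 0.0040) and the latter without mutant 2 (1.89, adjusted p = 0.0147). Of 16047 genes, the fit without mutant 3 called 46 lower in the former contrast. The fit without mutant 2 called 8969 in the latter, 4222 of them higher.

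Counted over the 10 genes, the contrast of the mutant with wild-type 3 and 4 called 3 lower (Itga2b, Plek and Vwf) and 4 higher (Cd9, Cd63, Gp9 and Gp1bb), where 24.7% of all genes were called lower and 22.1% higher. Of these calls the one of Gp1bb (limma adjusted p = 0.0490) rests on few reads of uncertain origin, and it was lost in a fit without wild-type 1 and 2 (adjusted p = 0.0878) and on leaving out any 1 library other than mutant 1 (0.0561 to 0.248). That of Plek was lost without wild-type 3 (-0.57, adjusted p = 0.174), and that of Gp9 without wild-type 4 (0.41, adjusted p = 0.264) or without mutant 1 (0.75, adjusted p = 0.0576). The contrast with wild-type 1 and 2 called none of them. Between the wild-type pairs, 5 of the 10 were lower in wild-type 3 and 4 (Pf4, Gp1bb, Gp9, Cd9 and Cd63; 20.9% of all genes were called lower) and none passed as higher (24.1% of all genes did), with Itgb3 at 0.94 (adjusted p = 0.0584) and Vwf at 0.73 (adjusted p = 0.0502). In that comparison Cd63 did not pass without wild-type 1 (adjusted p = 0.0658) or wild-type 4 (0.0703), nor Gp9 without wild-type 2 (0.0510) or wild-type 4 (0.0714). Itgb3, Vwf and Selp passed there as higher in wild-type 3 and 4 without mutant 2 or without mutant 3 (0.0018 to 0.0398). Of 16047 genes, those fits called 4528 higher without mutant 2 and 4319 without mutant 3. The 3 contrasts share libraries, so these values are set side by side and are not independent.

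**Figure D2:**
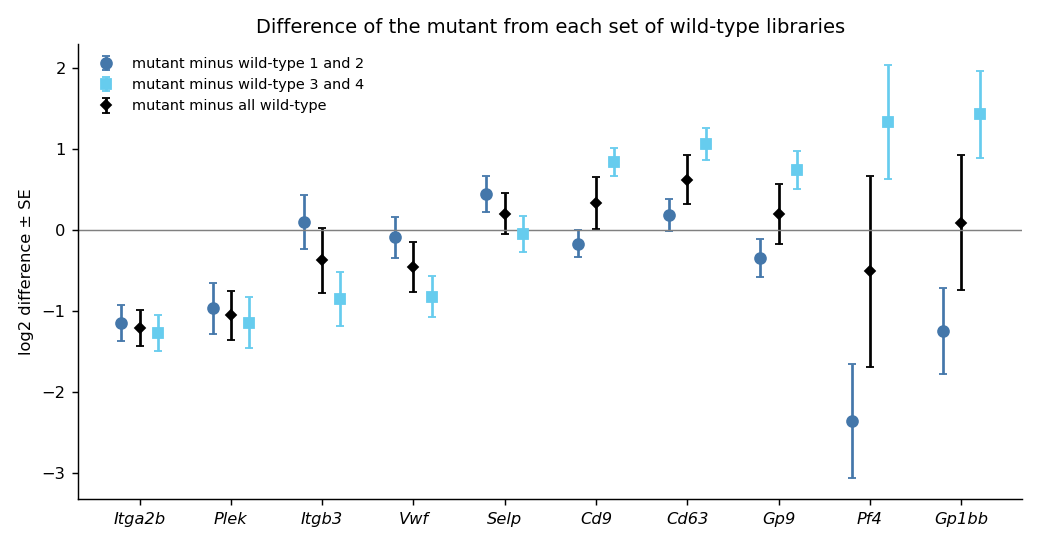
Log2 difference of the mutant from wild-type 1 and 2 (circles), from wild-type 3 and 4 (squares) and from all wild-type libraries (diamonds) for each of the 10 genes, with bars of 1 limma standard error. Itga2b and Plek lie near -1 or below against either pair, and Pf4 and Gp1bb lie on opposite sides of 0.

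The low and high Pf4 libraries followed the sample titles and not the genotype. All 4 libraries of the shared title series, wild-type 3 and 4 and mutant 1 and 2, had 404 to 1047 normalized counts, and the other 3 libraries, wild-type 1 and 2 and mutant 3, had 5602 to 10550. In a fit with genotype and title series together, Pf4 differed between the series by -3.28 (SE 0.34, limma adjusted p = 0.0070) and by genotype by 0.04. Gp1bb (-2.09), Gp9 (-0.87), Cd9 (-0.72) and Cd63 (-0.71) were also lower in the shared title series, with adjusted p-values of 0.0092 to 0.0146. These 5 of 10 stand beside 16.6% of all genes called lower by series. Itga2b (0.09), Plek (0.06), Selp (0.06), Vwf (0.13) and Itgb3 (0.20) did not pass.

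In Pf4, Gp9 and Gp1bb the 4 libraries of the shared title series were all below the other 3, as in 1959 of 16047 genes (12.2%). With the title series as a covariate, the genotype difference was -1.23 for Itga2b (limma adjusted p = 0.0258), -1.06 for Plek (adjusted p = 0.0317) and 0.74 for Cd63 (adjusted p = 0.0258), in a fit that called 12.5% of all genes lower and 9.96% higher. Only 1 mutant library lies outside the series, so that fit rests on mutant 3 for the comparison there. Within the shared title series alone, Itga2b, Itgb3, Vwf and Plek (-1.18) were called lower and Cd63 (0.90) and Cd9 (0.75) higher, with limma adjusted p-values of 0.0043 to 0.0239, beside 37.5% of all genes called in either direction.

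Levels were compared between the genes on the FPKM scale, which allows for length. In wild-type libraries the means ran from Cd63 (354 ± 118 FPKM), Pf4 (345 ± 357), Cd9 (219 ± 85.2), Itga2b (64.4 ± 15.2), Gp9 (62.04 ± 26.7), Gp1bb (26.0 ± 21.3), Vwf (22.3 ± 6.54) and Selp (18.6 ± 4.93) to Plek (14.0 ± 5.44) and Itgb3 (3.86 ± 1.501; SD, n = 4). The place of Gp1bb is uncertain, since its FPKM far exceeded its scaled counts, and it is left out of the comparisons of neighbours. Of the others, Cd9 was above Itga2b, Gp9 above Vwf, Selp above Plek and Plek above Itgb3 in 4 of 4 wild-type and 3 of 3 mutant libraries. Cd63 and Pf4, Pf4 and Cd9, Itga2b and Gp9, and Vwf and Selp changed places between wild-type libraries and so could not be ordered. In the mutant, Itga2b (28.9 ± 4.30 FPKM, n = 3) was below Gp9 (68.4 ± 19.2) in all 3 libraries.

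The transcript table held 10 models of Itga2b, of which 5 passed the FPKM filter. Itga2b-201, the protein-coding model of 30 exons and 3437 bases, had 49.1, 55.5, 74.4 and 44.1 FPKM across wild-type 1 to 4, against 19.2, 27.6 and 22.5 in mutant 1 to 3. The groups were separate, as for the gene. Its log2(FPKM + 1) difference was -1.22 (SE 0.23, limma adjusted p = 0.661; 0 of 30156 transcripts, 0.0%, passed and 2077 had an unadjusted p under 0.05). It was -1.16 (adjusted p = 0.299) against wild-type 1 and 2, where 3 transcripts (0.00995%) passed, and -1.29 (adjusted p = 0.0133) against wild-type 3 and 4, where 28.6% passed.

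Summed over all 10 models, Itga2b differed by -1.11 on the log2(FPKM + 1) scale, with an exact permutation p of 0.0286 (two-sided), the smallest this design allows. That p follows from the separate groups, which were known beforehand, and adds nothing to them. The permutation also took no account of the wild-type pairs or the title series. Itga2b-201 made up 89.0%, 81.9%, 88.3% and 87.8% of that sum across wild-type 1 to 4, against 79.4%, 84.7% and 75.1% across mutant 1 to 3. The share was lower by 7.05 percentage points in the mutant on average, but wild-type 2 lay among the mutant libraries (exact permutation p = 0.0857, two-sided). The 4 other models that passed were non-coding fragments of the locus. Itga2b-206, which covers exons 21 to 25, and Itga2b-209, which runs from exon 5 to exon 26, were lower in every mutant library (0.61 to 1.74 and 0.43 to 0.72 FPKM, against 1.87 to 3.28 and 1.15 to 2.03 in wild-type). Itga2b-205, at exons 1 to 2, overlapped between the groups.

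Itga2b-207, a short model at the 3′ end (exons 28 to 30), went another way. It had 2.03, 6.72, 0.43 and 0.37 FPKM across wild-type 1 to 4, against 2.64, 1.35 and 5.24 in mutant 1 to 3. It was low in wild-type 3 and 4 (-1.79 from wild-type 1 and 2, limma adjusted p = 0.0440, with 16.0% of all transcripts called lower) and did not separate the genotypes. The lowest shares of the coding model, in mutant 3, mutant 1 and wild-type 2, came with the 3 highest values of this fragment. The fragment is part of the sum from which the share is taken, so a high value of it lowers the share by arithmetic.

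Over the 10 genes, 46 transcript models were listed and 25 passed the filter. Among those 25, 4 were lower in every mutant library than in every wild-type library (3.82% of all tested transcripts were) and 0 were higher (4.27%). Itga2b held 3 of the 4, and the other was Plek-201. The 3 models of Itga2b share exons and are not separate counts, so the 4 restate the separation of Itga2b and Plek at gene level. The models of Plek were chosen for description after their values were seen.

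Plek-201 and Plek-202 differ in their first exon. Plek-202, of 4101 bases with a coding length of 1050, had 7.73, 13.1, 12.6 and 4.18 FPKM across wild-type 1 to 4, against 5.05 to 6.17 in the mutant, so its groups overlapped (-0.52, not called). Plek-201, whose first exon lies 43480 bases upstream of the first exon of Plek-202, had 1.93, 2.51, 8.37 and 5.38 FPKM in wild-type and 0, 1.11 and 0.36 in the mutant. All mutant libraries were below all wild-type libraries (-1.81, adjusted p = 0.661; -2.44 from wild-type 3 and 4, adjusted p = 0.0075). The upstream model thus had separate groups, as the gene did, and Plek-202 did not.

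The coding start of Plek-202 is shown because the models part there. Both start codons are in capitals, the first that of Plek-202 and the last that of Plek-201, which omits the 69 bases (23 codons) before it.
Plek-202, from the first to the inner start codon: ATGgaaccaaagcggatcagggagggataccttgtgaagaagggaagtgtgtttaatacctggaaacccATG
These 72 bases lie in exons at 17008557 to 17008598 and 16995200 to 16995355 on chromosome 11 (GRCm38, minus strand; the second exon runs on past them). The whole upstream first exon of Plek-201 (199 bases, 17052183 to 17052381) lies inside exons of Cnrip1, a gene on the opposite strand. The libraries carry no strand, so reads of that exon cannot be assigned to either gene. Cnrip1 itself measured 1121, 995, 661 and 687 normalized counts across wild-type 1 to 4, against 1391, 958 and 1156 across mutant 1 to 3. It was lowest in wild-type 3 and 4 and highest in mutant 1, the reverse of Plek-201.

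For Vwf the transcript models split by wild-type pair. The full-length model Vwf-203, of 52 exons and 8834 bases, had 2.36, 2.34, 10.6 and 11.6 FPKM across wild-type 1 to 4, against 2.65, 2.45 and 2.66 in mutant 1 to 3. The mutant lay near wild-type 1 and 2 and was -1.76 from wild-type 3 and 4 (limma adjusted p = 0.0039). The shorter Vwf-209, at the last 2 exons, had 7.11 and 7.84 FPKM in wild-type 1 and 2 and 3.81 to 16.2 in the mutant. In wild-type 3 and 4 its estimates were near 0 (1.3e-19 and 4.06e-06 FPKM). Vwf-202 and Vwf-210, which cover the 5′ part and the 3′ part, had the same layout as Vwf-209. Summed over all models, the difference between genotypes was 0.24 for FPKM but -0.45 for normalized counts, so its direction turned with the table used.

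Both main models of Pf4 followed the gene. The coding model of 3 exons measured 325, 510, 46.7 and 20.4 FPKM across wild-type 1 to 4, against 42.8, 33.1 and 288 in mutant 1 to 3. The model with a retained intron measured 159, 266, 33.1 and 9.28 FPKM across the same wild-type libraries, against 34.5, 23.4 and 115 across the mutant ones. The libraries of the shared title series were low in both.

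**Figure D3:**
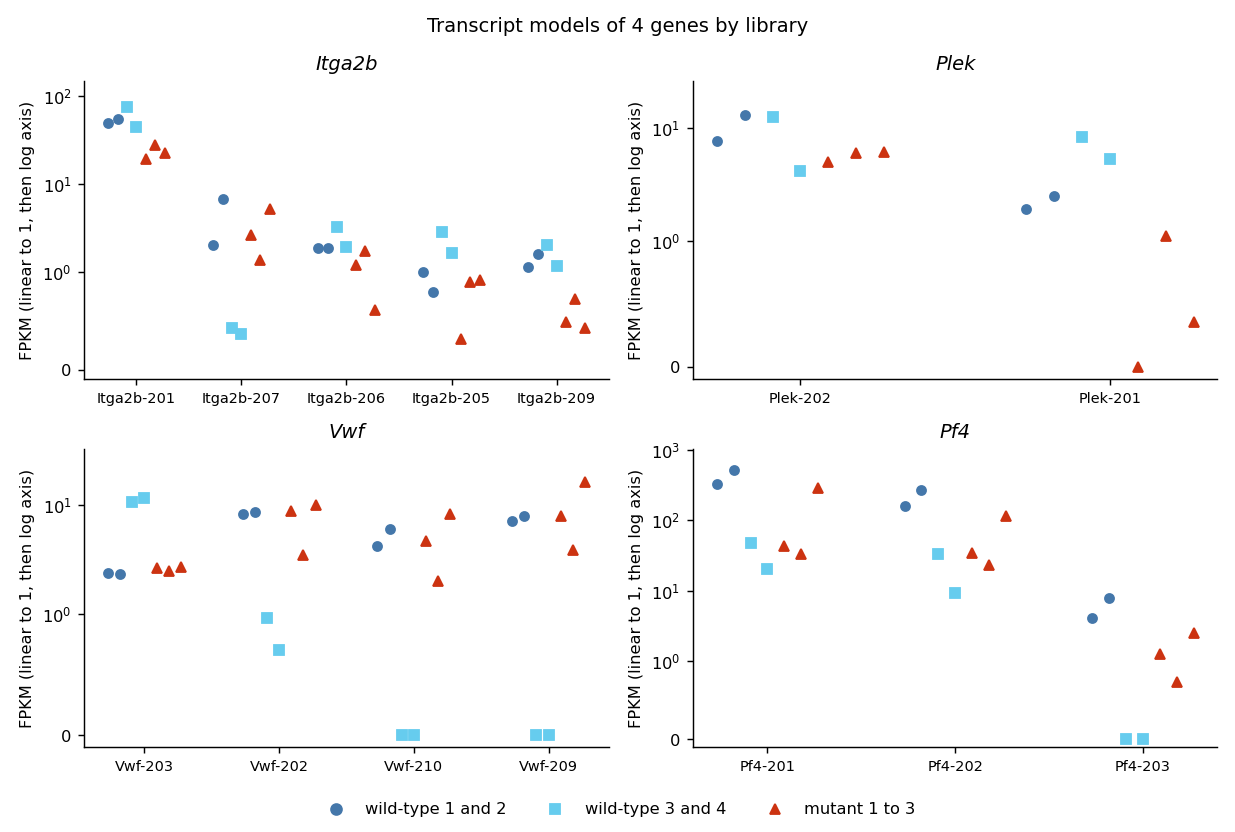
FPKM of transcript models of Itga2b, Plek, Vwf and Pf4 by library (axis linear up to 1 and logarithmic above), with wild-type 1 and 2 as circles, wild-type 3 and 4 as squares and mutant 1 to 3 as triangles. Itga2b-201 and Plek-201 are lower in all 3 mutant libraries, Vwf-203 is high only in wild-type 3 and 4, and the coding Pf4 model is low in wild-type 3 and 4 and mutant 1 and 2.

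Genes whose values ran most like those of Itga2b over the 7 libraries were found by Pearson's r of log2(normalized count + 1), as a description (n = 7). The libraries share genotype and title series, so these are not 7 independent points. The nearest were 4933423P22Rik (0.975), Gm17089 (0.974), Gm43178 (0.969), Gm45807 (0.968) and Chd7, a chromatin remodeller (0.967). Plek ranked 11 (0.957), Vwf 5269 (0.39) and Itgb3 6062 (0.30) of the tested genes. For Plek the nearest were Tmem259 (0.987), Gm37718, Sla, Gm43088 and Pdgfb, a growth factor of platelet granules (0.968), and Itga2b ranked 8. For Pf4 they were Dcaf17 (0.988), 2310061I04Rik, Gm42715, Cavin2 (0.977) and Sharpin, with Gp1bb at rank 80 (0.926) and Gp9 at rank 121 (0.911). Among the 10 genes, Plek thus ran with Itga2b, and Gp9 and Gp1bb each ran with Pf4. Itga2b and Plek both had separate groups, and that split is part of their r. The values of Gp1bb rest on few reads and are uncertain, and its r with Gp9 was not computed.

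The rest of the platelet programme was read through 7 further gene lists. None of their members passed in the fit over all 7 libraries (limma), and the median of all tested genes was 0.00. In the list of surface receptors and ligands (17 tested) the median log2 difference was 0.05. Of the 17, 1 gene was higher in every mutant library, a share near the 5.23% of all genes, and 0 were lower (4.34%). That gene was Esam, a junction protein of platelets and stem cells. It had 5568 to 6219 normalized counts in wild-type and 7338 to 8422 in the mutant (0.39). Cd36, a scavenger receptor, had 0.89 with overlapping libraries. In the list of tetraspanins (25 tested, median 0.14), Tspan13 (0.48), Tspan17 (0.52) and Tspan8 (0.67) were higher in every mutant library, 3 of 25 beside 5.23% of all genes.

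The lists for granules and for activation signalling follow, beside the 4.34% of all genes that were lower in every mutant library and the 5.23% that were higher. Among 34 granule genes (median -0.25; -0.01 against wild-type 1 and 2 and -0.35 against wild-type 3 and 4), 4 genes (F13a1, Tgfb1, Hps4 and Vps33b) were lower in every mutant library and Timp3 was higher. F13a1, the A subunit of clotting factor XIII, measured 17.5, 23.9, 151 and 102 normalized counts across wild-type 1 to 4, against 2.24, 8.04 and 6.04 across mutant 1 to 3 (-3.13, SE 0.80). It was far higher in wild-type 3 and 4 than in wild-type 1 and 2, and the fold rests on a few reads in the mutant.

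Among 47 signalling genes (median -0.10), 5 genes (Prkca, P2ry1, Pik3cb, Vav3 and Csk) were lower in every mutant library, and 2 (Orai1 and Tbxas1) were higher, the latter a share near that of all genes. Prkca, a protein kinase C that can phosphorylate pleckstrin, measured 522, 582, 723 and 670 normalized counts across wild-type 1 to 4, against 400, 330 and 373 across mutant 1 to 3 (-0.75, SE 0.19). P2ry1, a receptor for ADP, had 380, 442, 410 and 297 in wild-type and 199, 180 and 284 in the mutant (-0.80, SE 0.24). Both were separated between the groups, and neither passed (adjusted p = 0.538).

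Of 29 transcription factors and receptors of the megakaryocyte line, 23 had a negative difference and the median was -0.28, against -0.05 from wild-type 1 and 2 and -0.47 from wild-type 3 and 4. Mafg, the small MAF partner of NF-E2 (-0.52), and Fli1, an ETS factor of megakaryocytes (-0.24), were lower in every mutant library, 2 of 29 beside 4.34% of all genes. Zfpm1, the GATA partner FOG-1, measured 1711 and 1866 normalized counts for wild-type 1 and 2, 6874 and 5948 for wild-type 3 and 4 and 1404 to 1809 for the mutant, so its -1.13 came from wild-type 3 and 4. The 31 genes of the cytoskeleton and proplatelet formation had a median of 0.05 and 0 without overlap. Vcl (-1.21) and Myh9 (-1.10) had the smallest p-values of that list and were likewise high in wild-type 3 and 4 alone.

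A list of 24 genes of platelet-biased stem cells, which includes several of the 10, had a median of -0.11, with -0.40 against wild-type 1 and 2 and 0.25 against wild-type 3 and 4. The mutant libraries were lower throughout in Itga2b, Plek and Ehd3, an endocytic protein (908 to 1194 normalized counts in wild-type and 730 to 792 in the mutant, -0.51). These were 3 of 24, beside 4.34% of all genes, and 0 of 24 were higher throughout (5.23%). Itga2b and Plek are among the 10 genes, so only Ehd3 adds to what was given above. Slamf1 had 0.43. The 10 genes themselves had a median of -0.14, or -0.25 and 0.35 against the wild-type pairs.

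**Figure D4:**
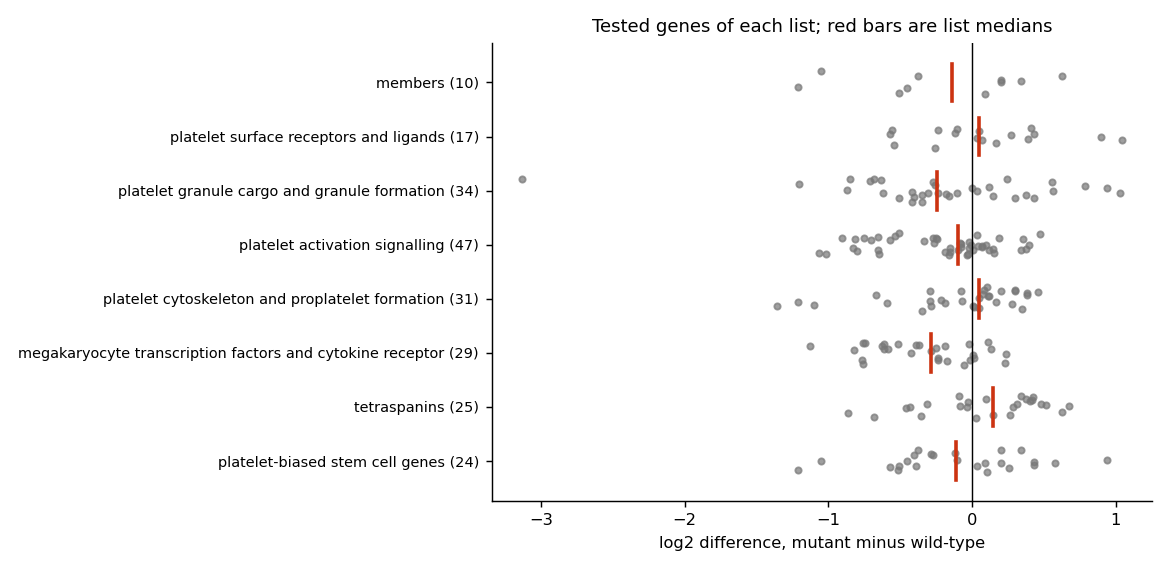
Log2 difference (mutant minus wild-type, all 7 libraries) of each tested gene of the 10 described genes and of 7 further lists, 1 point per gene, with the number tested in brackets and a bar at each median. The medians lie between -0.28 and 0.14, and single genes such as F13a1 (-3.13) lie far to the left.

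Markers of other cells were read beside these values. A list of 14 neutrophil and monocyte genes summed to 46374 to 91683 normalized counts over the wild-type libraries, against 51058, 11118 and 13509 over mutant 1 to 3. Of the 14, 5 were lower in every mutant library, beside 4.34% of all genes, and 0 were higher (5.23%). The list had a median log2 difference of -2.11, with 12 of the 14 negative. Its highest member, Ngp, had 10089 to 22709 in wild-type and 1466 to 9179 in the mutant. The markers of mature megakaryocytes and platelets (11 of 12 in the table, without Gp6) summed to 9415 to 20771 in wild-type and 12695 to 22082 in the mutant. A large part of that sum was reads of Nrgn, with 4750 to 10604 in wild-type and 6170 to 12167 in the mutant. Of the 10 tested members, 7 had a positive and 3 a negative difference, with a median of 0.15. Within that list Mpig6b, a platelet receptor, was near 0 (0.89 to 6.56 normalized counts). Endothelial markers (11 of 14, without Cdh5, Lyve1 and Sox17) summed to 3603 to 9510 in wild-type and 3923 to 5251 in the mutant. A large part of it was reads of Tie1, with 2247 to 8240 in wild-type and 1928 to 3690 in the mutant. Of the 11 members, 7 had a negative and 4 a positive difference, with a median of -0.25. Erythroid markers (13 of 14, without Slc4a1), most of them reads of Car2, a carbonic anhydrase, summed to 36016 to 56146 in wild-type and 56586 to 70609 in the mutant. That sum follows Car2, while 9 of the 13 members had a negative difference and the median was -0.55; Alas2, of haem synthesis, was the lowest member, with -0.82. Mast cell and basophil markers summed to 217 to 326 and 91.1 to 217, and the sums of B cell, T and NK cell and multipotent progenitor markers overlapped between the groups. Most of the B cell sum was reads of Cd79b (0.38). The 5 tested B cell genes had a median of -1.31, with 3 negative and 2 positive. Of these 5, 2 were lower in every mutant library and 1 was higher, beside 4.34% and 5.23% of all genes. The share of counted reads on mitochondrial genes was 0.363% to 0.711% for wild-type, against 0.683% to 1.17% for the mutant. The part of these cells and of the mitochondrial share in the values of Itga2b and Plek was not tested.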

How the data were processed

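Per the submitters' processing notes, the authors' build was GRCm38 and their tools were STAR 2.7.3a, Cufflinks 2.2.1, DESeq2 1.12.4, HTSeq 0.6.1 and FastQC 0.11.7. SMART-Seq v4 cDNA was made from PicoPure RNA and the libraries were unstranded, per the labels' protocols. The deposited gene signal was a normalized count; 100% of values were whole multiples of 1 step per library (tolerance 0.01), so reads were recovered. The deposited FPKM values were transcript estimates by the authors. Positions came from GENCODE M21 (97.7% of genes and 99.1% of transcripts matched).

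Genes with at least 10 normalized counts in at least 3 libraries were tested on log2(normalized count + 1) with trended limma 3.58.1 (R 4.3.3), two-sided, at a Benjamini-Hochberg adjusted p of 0.05. A second fit gave each wild-type pair and the mutant its own mean. Transcripts with at least 1 FPKM in at least 3 libraries were tested on log2(FPKM + 1). Fold changes on these scales understate those of low genes. The summed FPKM of Itga2b and its model share were tested by exact permutation over samples. edgeR 4.0.16 and DESeq2 1.42.0 on recovered reads, other scalings, filters, covariates and left-out libraries were alternatives. Only the limma fits of genes were checked on simulated reads, which held no wild-type pairs or title series. That check therefore does not cover the spread between these libraries. Named were the 10 genes, genes passing or of smallest p and without overlap in each list, the highest and lowest markers, and the 5 nearest genes by correlation. Genes, lists and tests were chosen with earlier results of these data known.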

Additional observations from a re-analysis of the deposited data

Results flagged for a closer look

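The transcript model Itga2b-206 had 3.28 FPKM in wild-type 3, while the other 3 wild-type libraries had 1.87, 1.89 and 1.90. The highest value lay so far from its neighbours, relative to the range of the 4 libraries, that it passed Dixon's limit for a sample apart from the rest. Wild-type 3 was also the highest library for the whole gene (7309 normalized counts). Chance marks about 1 group in 20 in this way, and many groups were examined.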

How the results depend on the processing

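Over 21 alternative settings, Itga2b lay between -1.43 and -1.07 and Plek between -1.31 and -0.83, each with 1 sign throughout. Itga2b passed in 5 of them and Plek in 2, and both also passed within the shared title series. The number of genes called over all libraries (0 in limma, also with edgeR) was 84 with DESeq2, 127 with the length slope and 3597 with the title series as a covariate, 51 without wild-type 3 and 4, 6828 when wild-type 1 and 2 were left out and 6010 within the shared title series, the last chosen after seeing the data. With edgeR the count against wild-type 1 and 2 went from 50 to 24. Leaving out 1 library at a time gave 0 to 595 genes for that contrast (0 without wild-type 1, 595 without mutant 2), 4348 to 8969 against wild-type 3 and 4 (lowest without wild-type 3) and 4342 to 8513 between the wild-type pairs (lowest without wild-type 1). The number of transcripts called was 3 with no filter, 2 without wild-type 3 and 4, 6778 when wild-type 1 and 2 were left out and 0 to 1 with any 1 library left out. The cause of these shifts was not tested.

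Signs turned for these genes and transcript models. Without wild-type 3 and 4, Itgb3 had 0.10, Cd9 -0.17, Gp9 -0.34, Gp1bb -1.25, Itga2b-207 -0.36 and Vwf-203 0.10. Without wild-type 1 and 2, Pf4 had 1.34 and Selp -0.045, and within the shared title series they had 0.46 and -0.24. The length slope gave Cd9 -0.14, Gp9 -0.33 and Gp1bb -1.07. The title series gave Pf4 0.036. Summed FPKM gave Vwf 0.24 and Gp1bb -0.12. Gp1bb had -0.035 with a pseudocount of 10, -0.17 with estimated library weights (11.2 for mutant 1, at most 1.05 elsewhere), -0.32 with edgeR and -0.32 with DESeq2. With any 1 library left out, Pf4 ranged from -1.39 to 0.21, Gp9 from -0.090 to 0.39 and Gp1bb from -0.47 to 0.55. Against wild-type 1 and 2, Itgb3 ranged from -0.28 to 0.47 and Vwf from -0.35 to 0.18, and against wild-type 3 and 4 Selp ranged from -0.26 to 0.17. Between the wild-type pairs, Itga2b ranged from -0.25 to 0.50 and Plek from -0.39 to 0.75. The summed FPKM of Itga2b ranged from -1.22 to -0.97, with exact permutation p-values of 0.0667 or 0.1, the smallest that 6 libraries allow.

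The median of the 10 genes was 0.35 without wild-type 1 and 2. In the same fit it was 0.16 for surface receptors, -0.47 for transcription factors and 0.41 for tetraspanins. With wild-type 3 and 4 left out instead, surface receptors had 0.16, granule genes -0.0088 and transcription factors -0.054. No paired analysis was possible because the titles share no replicate number between groups. Depth limits only Gp1bb among the 10.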

Other observations

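Some further platelet genes were looked up after the values of the 10 genes were seen, and none passed in limma over all 7 libraries. Gp1ba and Gp5, the receptor subunits that join the products of Gp9 and Gp1bb, had log2 differences of -0.11 and -0.12 with overlapping libraries. Ppbp, another chemokine of alpha granules, measured 204, 264, 76.7 and 53.2 normalized counts in wild-type, against 163, 108 and 192 in the mutant, so wild-type 3 and 4 were low and the mutant lay between.

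Gata1, the GATA factor of the megakaryocyte and erythroid lines, measured 1914, 2332, 1172 and 774 normalized counts across wild-type 1 to 4, against 1033, 874 and 1402 across mutant 1 to 3. Treml1, an alpha granule receptor, had 674, 1009, 371 and 204 in wild-type and 323, 225 and 454 in the mutant. Both were highest in wild-type 1 and 2 and next in mutant 3. Mmrn1, a granule protein that binds factor V, went the other way, with 4404 and 4413 for wild-type 1 and 2, 10934 and 9424 for wild-type 3 and 4 and 3975 to 6588 for the mutant.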
